A study of Homo sapiens with 2 samples.

Results

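The apolipoprotein L (APOL) genes are a family of 6 neighbouring genes on chromosome 22, and the summits described here are the places in and around them where IRF1 was called bound in NB4 cells. A summit is the single base at the top of an enriched region in chromatin immunoprecipitation followed by sequencing (ChIP-seq). The members were all summits whose nearest gene in the deposited list is APOL1, APOL2, APOL3, APOL4, APOL5 or APOL6, together with every summit on chromosome 22 from position 35500000 to 36400000 (build hg38). They were chosen by their positions and nearest genes in the list of called summits, and both criteria gave the same 6 summits out of 1986. They belonged to 4 of the 6 genes. NB4 is a cell line derived from acute promyelocytic leukemia, in which PML is fused to RARA. Its labels give bone marrow and leukemia. The series holds 1 library of cells given the solvent DMSO and 1 library of cells given all-trans retinoic acid (ATRA) for 4 hours, a treatment that drives these leukemic cells to differentiate. The list carries the name of the ATRA library. Values of the DMSO library were not analysed here, so nothing below measures a gain or loss under ATRA, and there is no spread between replicates. Cell identity was not tested, since the list holds no expression values.

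The APOL proteins are mostly intracellular, and they share a region related to pore-forming bacterial toxins and a membrane-facing region. APOL1 is the member that is secreted: it travels on high-density lipoprotein and lyses African trypanosomes. Several members are induced by interferon, and IRF1 is a transcription factor that is itself induced by interferon-gamma and binds interferon-stimulated response elements in the promoters of its targets.

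Because the presence of a summit chose the members, the counts and scores of the 6 summits are a description and no test was made on them. A gene was called when the list named it as nearest to a summit no more than 10 kb from its transcription start site (TSS). Of the 6 genes, 4 were called, and so were 3.36% of 19974 protein-coding genes. The same 4 of 6 were called within 1 kb (2.03% of protein-coding genes), at any distance (6.38%), by a summit inside the RefSeq gene span extended by 10 kb (7.45%), and from the higher-scoring part of the list alone (1.9%). APOL4 and APOL5 had no row. The peak score is the authors' own value, on a scale that the file does not state. It ran from 8.28 to 321 over the list, the median was 25.2 and the upper quartile 44.0, and it is compared here only within the list. How many reads lie behind each summit is unknown.

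In order of increasing position, the summits fell to APOL6, APOL3, APOL3, APOL2, APOL2 and APOL1. The APOL6 summit stood alone at chromosome 22 position 35648373. The next, the lower of the APOL3 pair, was 508553 bp away at 36156926. From there the gaps were 3908 bp to the other APOL3 summit, 77412 bp to the lower APOL2 summit, 1370 bp to the upper APOL2 summit and 13439 bp to the APOL1 summit at 36253055. The cluster was thus made of 1 isolated site and 5 sites within 96.1 kb, and the whole run spanned 605 kb. Across the 1853 summits outside a dense block on chromosome 21, the median distance to the nearest other summit was 277 kb, and 10.6% had another summit within 5 kb. Of the 6 APOL summits, 4 had one within that distance, namely both of APOL3 and both of APOL2.

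**Figure D1:**
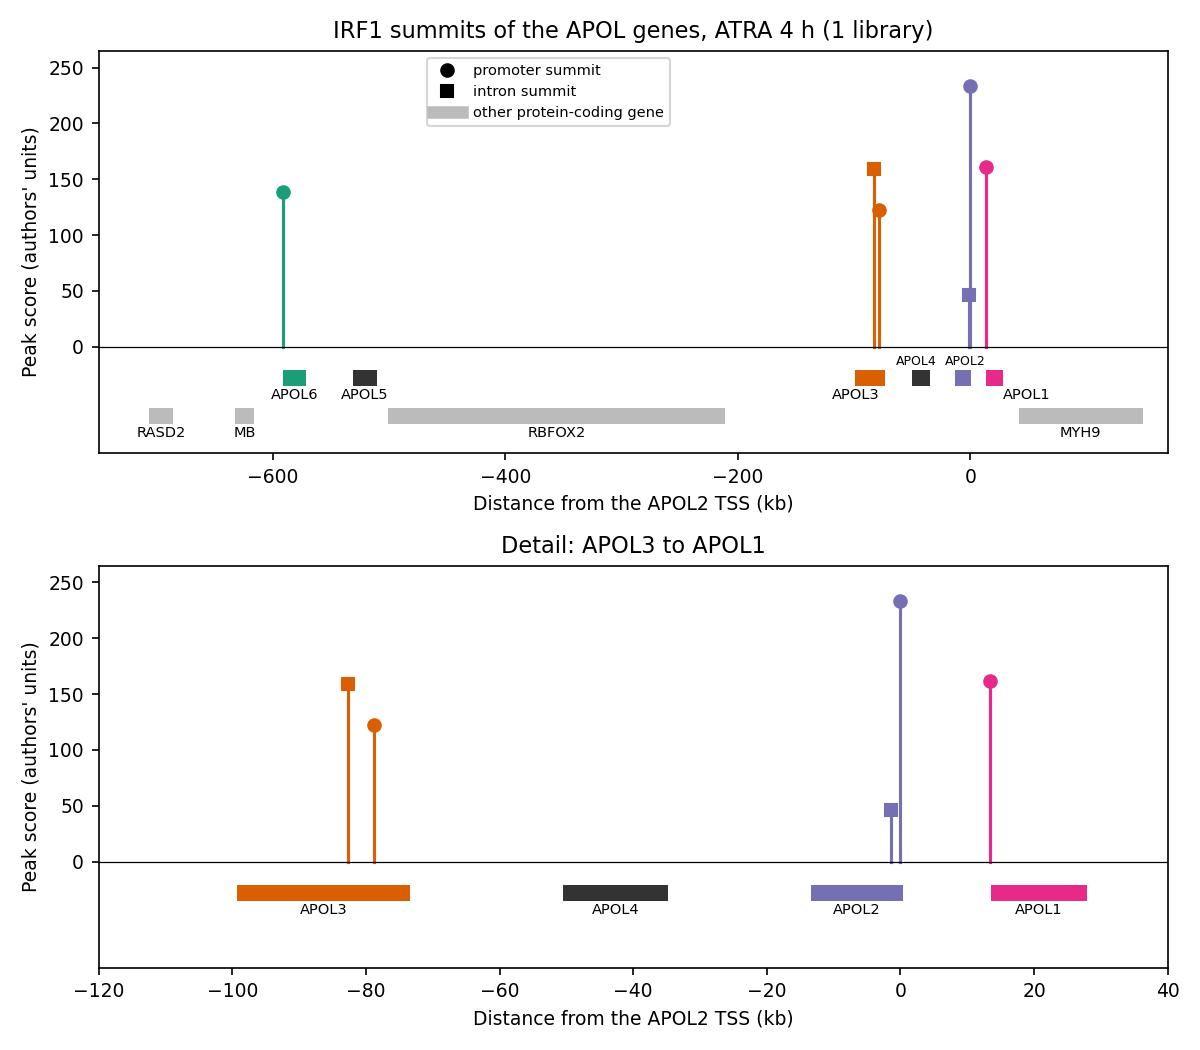
Peak score (vertical axis, the authors' units) of each IRF1 summit against its distance from the APOL2 TSS (horizontal axis, kb), with RefSeq spans of the protein-coding genes below; the upper panel shows the whole region and the lower panel the stretch from APOL3 to APOL1. Circles are promoter summits and squares intron summits of the 1 ATRA library; APOL4, APOL5, RBFOX2, MYH9, MB and RASD2 carry none.

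APOL1 encodes the secreted, trypanosome-lysing member (ENSG00000100342). Its single summit had a score of 161, higher than 97.6% of the list. It lay at -16 bp from the TSS in the list, just upstream, in sequence annotated as promoter. The RefSeq span of the gene (36253133 to 36267525) begins 78 bp beyond the summit, so the position is just outside the annotated gene. Among the 44 summits of chromosome 22 it was rank 4 by score.

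APOL2 encodes an intracellular member of the endoplasmic reticulum (ENSG00000128335). Its promoter summit, at position 36239616 and 27 bp downstream of the TSS, scored 233. This was rank 13 of 1986 and rank 1 on chromosome 22, and among 384 promoter summits it was rank 6. A weaker summit followed at position 36238246, in intron 1 of 4, 1397 bp downstream of the TSS. Its score of 46.5 was 5.02 times lower and exceeded 76.6% of the list. It was the lowest of the 6 scores in the cluster, though still above the upper quartile of all summits. Both distances give the same TSS position, 36239643, when the gene is read towards lower coordinates.

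APOL1 and APOL2 lie head to head. Their TSSs in the list are 13428 bp apart and the genes run away from each other. Each of the 2 starts had its own summit, and no other summit lay in the sequence between them.

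APOL3 encodes a member known for damaging the membranes of bacteria in the cytosol of interferon-treated cells (ENSG00000128284). It also had 2 summits, but here the intronic one was the higher. The summit at position 36156926 scored 159, and lay in intron 1 of 4 of an annotated transcript. It was 4003 bp downstream of the nearest TSS, which the list assigns to a different transcript of the gene. The summit at position 36160834, 95 bp downstream of that TSS and annotated as promoter, scored 123. The ratio of the intronic to the promoter score was 1.30, and without a replicate it cannot be judged whether they differ. The TSS that both distances point to, 36160929, is not the outer end of the gene. It lies 5248 bp inside the RefSeq span (36140323 to 36166177), which is read towards lower coordinates. No summit was listed at the outer end.

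The APOL3 intronic score was rank 13 among the 698 summits classed as intron, whose median score was 24.8. The APOL2 intronic score was rank 143 among them. For 284 of the 698 (40.7%) the detailed annotation gave something other than the intron itself, such as a repeat. For both APOL introns it repeated the intron, so no repeat was named there.

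APOL6 encodes a member reported to promote cell death when overexpressed (ENSG00000221963). Its summit, at position 35648373, scored 139 and exceeded 96.2% of the list. It lay at -4 bp from the TSS, the shortest distance among the 6. The RefSeq span (35648446 to 35668404) begins 73 bp beyond it. Although 509 kb from the rest of the cluster, it scored between the APOL1 summit (161) and the APOL3 promoter summit (123).

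**Figure D2:**
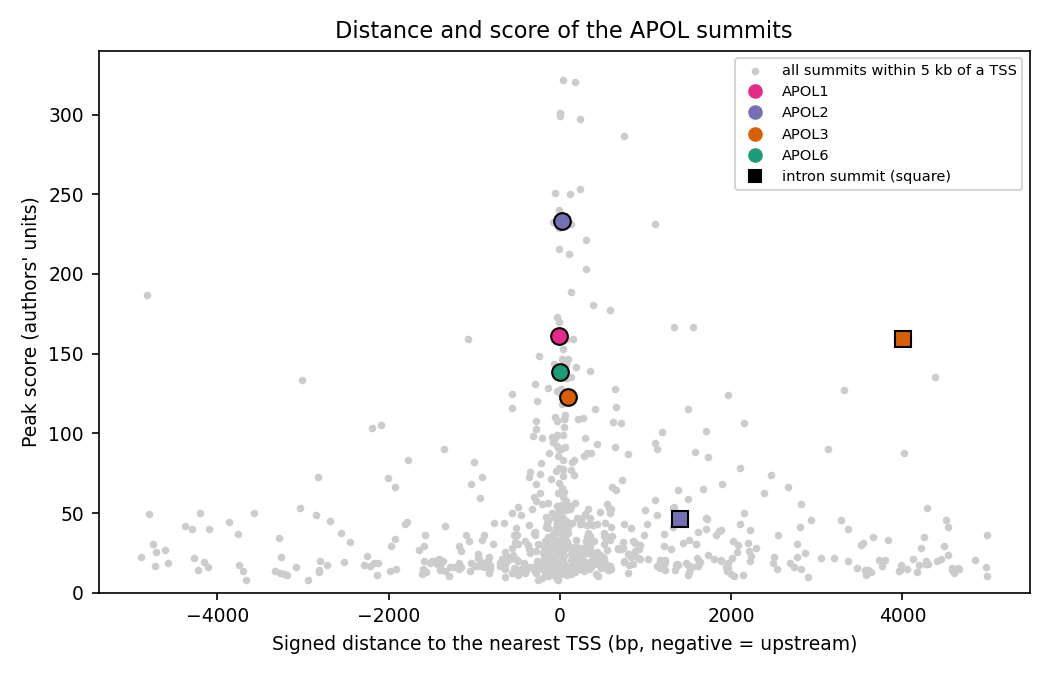
Peak score (vertical axis, the authors' units) against signed distance to the nearest TSS (horizontal axis, bp, negative upstream) for all summits within 5 kb of a TSS (grey) and the 6 APOL summits (coloured; squares are intron summits). The 4 promoter summits, scoring 123 to 233, lie between -16 and 95 bp; the intron summits lie at 1397 and 4003 bp.

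All 4 genes with a summit thus had 1 within 100 bp of a TSS, on the upstream side in APOL1 and APOL6 and on the downstream side in APOL2 and APOL3. In the whole list 217 summits (10.9%) lay within 100 bp of a TSS, with a median score of 31.5. Such a summit was found at 0.931% of protein-coding genes, or 186 of the 672 with a summit within 10 kb. Among the interferon-stimulated genes described below, it was found at 29 of the 37 with a summit. The median score over the 6 APOL summits was 149. Of the 6, 5 scored above 100, against 162 of all 1986 summits (8.16%). On chromosome 22, 5 of the 7 highest summits were those of APOL genes. Rank 3 was a summit in the 5′ UTR of USP18, which encodes the protease that removes ISG15 from proteins (212).

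**Figure D3:**
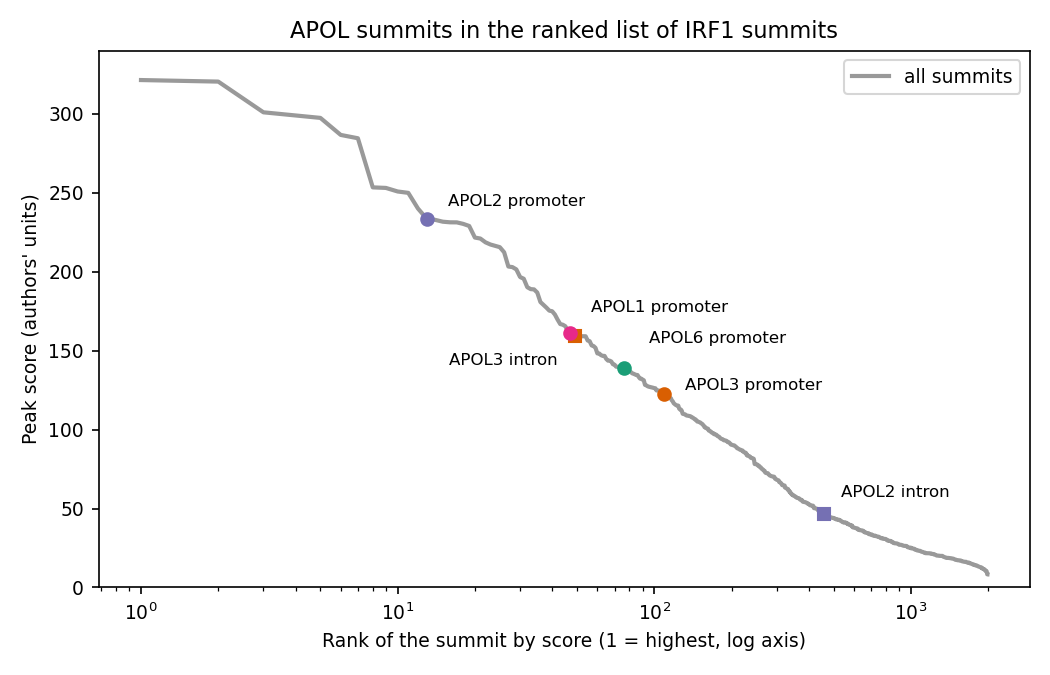
Peak score (vertical axis, the authors' units) against rank in the list (horizontal axis, log scale, 1 is the highest) for all 1986 summits (line) and the 6 APOL summits (circles for promoter, squares for intron). APOL2's promoter summit is at rank 13, those of APOL1, APOL6 and APOL3 at ranks 47, 76 and 109, and the intron summits of APOL3 and APOL2 at ranks 49 and 460.

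APOL4 (36189128 to 36204833) lies between APOL3 and APOL2, within the dense part of the cluster. The nearest summits were 28.3 kb below its span, at APOL3, and 33.4 kb above it, at APOL2. APOL5 (35708424 to 35729483) lies beyond APOL6, whose summit was 60.1 kb from it, and the next one on the other side was 427 kb away. An unlisted site can still be bound below the calling threshold, so these 2 genes are only without a listed summit. If the authors used the DMSO library as the background, equal binding in both libraries would also leave no summit. The background is not given in the sources used here.

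The remaining protein-coding genes of the region had no summit either. RBFOX2, a splicing regulator gene of 290.1 kb, fills much of the long gap between APOL6 and APOL3, and the nearest summit was 90.4 kb from its span. MYH9, which encodes a non-muscle myosin heavy chain and follows APOL1, was 28.2 kb from a summit. The myoglobin gene MB was 25.0 kb from the APOL6 summit, and RASD2, a small GTPase gene, 94.4 kb. Beyond the upper edge of the region the next summit, with a score of 20.6, was 763 kb away, at -12690 bp from the TSS of IL2RB, an interleukin receptor gene.

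Most genes had no summit at all, and few of those with a promoter summit also had an intronic one. By the 10 kb rule, 56 protein-coding genes had at least 2 summits. That was 0.28% of all and 8.33% of the 672 with any such summit. Among the interferon-stimulated genes described below, 37 had a summit and 8 of those had at least 2. By the same 10 kb rule, 186 protein-coding genes had a summit within 100 bp of a TSS, and 13 of these also had one in an intron. Pairs with the intronic summit farther out, as at MIA3 (10758 bp), were not counted. APOL2 and APOL3 were 2 of the 13. The promoter score was the higher in 7 of the 13, APOL2 included, and the intronic score in 6, APOL3 included. The other genes included IL15RA, an interleukin receptor subunit, with 232 at the TSS and 17.7 in the intron, and B2M, the light chain of MHC class I, with 49.8 and 101. APOL3 was the 1 gene of the 13 in which both scores exceeded 100. This comparison was chosen after the values were seen.

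To set the APOL genes beside like families, the same values were taken for the APOBEC3 cytidine deaminase, IFIT antiviral and guanylate binding protein (GBP) clusters, which are also runs of related interferon-induced genes. With the 10 kb limit, 4 of 7 APOBEC3 genes had a summit, 4 of 5 IFIT genes and 2 of 7 GBP genes, beside 4 of 6 APOL genes. The number of genes with a summit was therefore the same as in APOBEC3 and IFIT, and the scores reached higher values. The APOBEC3 scores ran from 15.8 to 109, the highest being at APOBEC3G, and the IFIT scores from 16.2 to 76.5, the highest at IFIT1. The 2 GBP summits scored 49.0 (GBP2) and 30.7 (GBP1). All but 1 of the APOL scores, the intronic one of APOL2, lay above the highest of these 3 clusters. No difference between clusters was tested, since all were picked with the summits known and genes are not replicates.

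The clusters were also described by position relative to the TSS, again with no test. Within 100 bp of a TSS lay 4 of 6 APOL summits, 2 of 5 in APOBEC3, 4 of 5 in IFIT and 0 of 2 in GBP. The GBP summits were intergenic, at -2847 bp (GBP2) and -4756 bp (GBP1) from the TSS. Introns held 2 of the APOL summits and none of those in the other clusters. The median gap between neighbouring summits was 13.4 kb in APOL and 13.3 kb in APOBEC3, although the APOL genes span 619 kb and the APOBEC3 genes 146 kb.

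**Figure D4:**
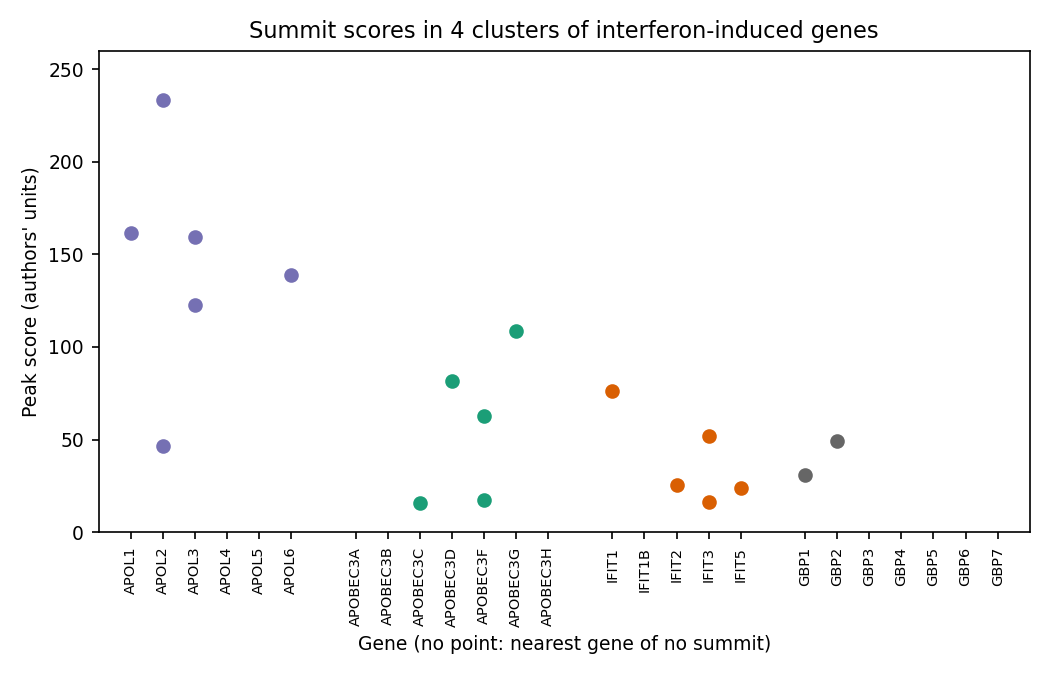
Peak score (vertical axis, the authors' units) of every summit whose nearest gene belongs to the APOL, APOBEC3, IFIT or GBP cluster, by gene (horizontal axis); each point is 1 summit of the 1 ATRA library. The APOL points reach 233, against 109, 76.5 and 49.0 in the other clusters, and APOL4 and APOL5 have no point.

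Among 56 interferon-stimulated genes outside the APOL family, 37 had a summit within 10 kb, and the median of their highest scores was 77.2, against 28.8 over the 672 protein-coding genes with such a summit. The highest were those of PARP12 (287), an antiviral ADP-ribosyltransferase, the ubiquitin-like modifier ISG15 (251), PARP9 (240.0) and USP18. Of the 37 genes, 3 scored above APOL2, 5 above APOL1, 6 above APOL3 and 7 above APOL6. Placed among all 672 genes by highest score, APOL2 was rank 10, APOL1 rank 27, APOL3 rank 29 and APOL6 rank 41.

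The name of the family comes from the lipoprotein particles that carry APOL1, so other apolipoproteins were examined too. Of 16 such genes, among them APOA1, the main protein of high-density lipoprotein, APOB, APOE and APOM, 0 had a summit within 10 kb. With 3 divided by the number of genes as an approximate upper bound, a count of 0 allows a share of up to 18.8%, for counting error only. Of 5 genes whose products are partners of APOL proteins, namely HP, HPR, NCS1, PI4KB and VAMP8, 0 had a summit. The same approximation gives up to 60% there, and it is rough for so few genes. Shares of this size are too loosely bounded to be set against the 3.36% of all genes.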

How the data were processed

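IRF1 ChIP-seq was made in 2 libraries of NB4 cells, 1 per group. The analysis used 1 deposited list, named for the ATRA library per the file headers. The submitters' processing notes name Bowtie2 2.2.9, MACS 1.4.2 and hg38, and per the file headers a summit file was annotated with HOMER's annotatePeaks.pl. The deposited peak score is the authors' value and its scale is not stated. Not given in the sources used here are the calling background, the threshold and the treatment of duplicate reads. APOL genes are related in sequence, and how reads matching more than 1 of them were placed is not known. Coordinates count from 1 (hg38).

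Entrez identifiers linked 1977 of 1986 summits to RefSeq genes of GRCh38.p14. A protein-coding gene of the autosomes or chromosome X was called when the authors list it as nearest to a summit at most 10 kb from its TSS. Strand was inferred from the distances and the RefSeq spans. The text names the 6 members, the protein-coding genes of the region, the highest gene of each compared cluster and the 4 highest of each list; the genes with several summits were chosen after their values were seen. Members and lists were chosen with earlier results of these data known. Promoter sequences were matched for 0 of the 6 members (APOL1 to APOL6), so the motif search was not run, nor was a comparison of proteins. The counting steps were tested on simulated data. Python 3.11.15, pandas 2.3.3 and matplotlib 3.10.9 were used. One summit outside the region is not reported here.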

Additional observations from a re-analysis of the deposited data

How the results depend on the processing

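Leaving out a replicate was not possible with a single library in each group, and no value has an error. No paired analysis was possible because the groups hold a single library each. The count of 6 summits in the region stayed at 6 within the APOL gene span extended by 10 kb, after summits under 200 bp apart were merged, and in the higher-scoring part of the list (the summits at or above the median rank). Merging could not change the count, since the closest APOL summits were 1370 bp apart. Nor could the score cut, since the lowest APOL score, 46.5, exceeded the list median of 25.2. The count of 4 APOL genes stayed at 4 within 1 kb, at any distance, with gene spans extended by 10 kb and in the same higher-scoring part. It was also 4 in the 397 highest summits and within 100 bp, which were chosen after seeing the data. The highest APOL score was 233 by nearest gene and by region. The planned search of APOL promoters for the interferon-stimulated response element and the STAT motif was not run. Depth per summit is unknown, so a missing summit does not show missing binding.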

Other observations

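A gene outside the family by name, APOLD1, which encodes a protein with an apolipoprotein L domain, had a summit of its own on chromosome 12 at position 12725013, at -904 bp from its TSS. Its score of 16.9 exceeded 21.2% of the list and was below all 6 scores of the APOL cluster.

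Runs of 5 consecutive summits as short as the 96.1 kb from APOL3 to APOL1 were counted over the list, without the dense block of 133 summits on chromosome 21. Of 1761 such runs, 24 (1.36%) were as short or shorter, and they merged into 8 loci. Besides APOL these included the APOBEC3 genes, SOCS1, a feedback inhibitor of cytokine signalling, and RUNX1, a haematopoietic transcription factor. The rest were RNU2-1 with LINC00910 (14 summits), SP2 (5), GRAMD4 (6) and the stretch from FLJ32255 to ZNF131 (10). The median score of the APOL locus was 159, and the medians of the other 7 ran from 16.0 to 62.5. Dense stretches with fewer than 5 summits were not counted, and some of these scored higher. On chromosome 6, from position 32838774 to 32854571, the summits of TAP2, PSMB8, TAP1 and PSMB9 scored 301, 229, 231 and 115. This count was chosen after the spacing of the APOL summits was seen, and it is a description of the list.

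Scores in the list repeat: the 1986 summits hold 1046 different values. The score of the APOL2 intronic summit occurs at 4 other summits, among them the promoter summit of PARP14, whereas each of the other 5 APOL scores occurs once.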
